A study of Homo sapiens with 8 samples.

Results

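A set of 51 genes of the cell cycle and of DNA replication was examined across the 4 groups of the series, out of 60659 genes in the count table. The genes were chosen by name, from what they are known to do, and with earlier results of these data known. They were read in 5 groups by phase. These were 7 cyclins, kinases and inhibitors of G1, 7 genes of the G1/S transition and 15 genes of origin licensing and replication. The other groups were 9 genes of S/G2 and mitotic entry and 13 genes of mitosis. All 51 were found in the table.

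The libraries came from SK-N-SH, a human neuroblastoma line whose cultures hold both neuroblast-like and substrate-adherent cells. In 1 experiment, parental cells given doxycycline (Dox) were compared with cells carrying FLAG-tagged ZMYND8 and given Dox. In the other, cells labelled Control KD were compared with cells labelled ZMYND8 KD. Retinoic acid in its all-trans form (ATRA) was given to every group at 10 μM for 24 h, so that no group shows the cycle without it, and each group held 2 biological replicates. The overexpressing cells had been transduced with an inducible lentiviral vector and selected with Geneticin, whereas their controls are labelled only as parental cells. How the knockdown in these libraries was made is not stated clearly in the sources used here. Titles of the KD control libraries differ, as CONTROLI and CONTROLII, and whether they are different controls is not clear from the labels. Total RNA was sequenced after removal of ribosomal RNA.

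The eukaryotic cycle is driven by cyclins bound to cyclin-dependent kinases (CDKs). In G1, D-type cyclins with CDK4 or CDK6, and later cyclin E with CDK2, phosphorylate the retinoblastoma protein, which frees E2F factors to transcribe genes of DNA replication. Cyclins A and B with CDK1 then carry the cell into mitosis, and many genes of that phase are held back in resting cells by the DREAM complex through a promoter element called CHR, often beside CCAAT boxes. Retinoic acid is known to slow the growth of neuroblastoma cells as they differentiate.

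ZMYND8 itself, a chromatin reader and the targeted gene, followed the labels. Its level in CPM (counts scaled to library size, here by the trimmed mean of M-values, TMM, over all 8 libraries) was 73.3 and 71.5 for parental cells and 3962 and 3961 for overexpressing cells. It was 60.1 and 61.8 in the KD controls and 31.8 and 31.9 in the knockdown. Overexpression thus raised the transcript 58.3-fold, while in the knockdown its level changed by -47.8%. Total counts per library ran from 38316523 to 56256979.

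Promoter letters of the replication and mitosis genes are shown first, since members of different phases differed in them. RefSeq promoter windows of 250 bases before and 50 bases after the start (GRCh38.p14) were found for 40 of the 51 genes. The E2F letters searched, on both strands, were TTTCCCGC, TTTCGCGC, TTTGCCGC and TTTGGCGC. They were present in 3.33% of 27305 promoters of the same length, and in 13 of the 40 members: 9 of 13 replication genes, 3 of 5 G1/S genes, 1 of 8 S/G2 genes and 0 of 9 mitosis genes. The last 80 bases before the start are given here for 3 G1/S genes and 3 replication genes, with the E2F letters in capitals.
E2F1 (chr20:33686386-33686465, minus strand): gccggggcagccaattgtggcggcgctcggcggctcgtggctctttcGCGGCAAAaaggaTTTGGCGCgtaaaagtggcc
E2F2 (chr1:23531234-23531313, minus strand): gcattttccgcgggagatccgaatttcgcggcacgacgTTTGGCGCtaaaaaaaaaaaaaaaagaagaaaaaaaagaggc
CDC25A (chr3:48188418-48188497, minus strand): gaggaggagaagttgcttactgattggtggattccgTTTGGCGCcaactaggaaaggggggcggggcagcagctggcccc
CDT1 (chr16:88803709-88803788, plus strand): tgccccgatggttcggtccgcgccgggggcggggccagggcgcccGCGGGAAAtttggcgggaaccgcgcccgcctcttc
GINS2 (chr16:85688955-85689034, minus strand): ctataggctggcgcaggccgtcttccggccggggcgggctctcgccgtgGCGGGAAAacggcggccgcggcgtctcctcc
PCNA (chr20:5126623-5126702, minus strand): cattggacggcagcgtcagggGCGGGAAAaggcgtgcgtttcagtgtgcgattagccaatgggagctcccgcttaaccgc

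The CHR letters TTTGAA and TTCGAA, also searched on both strands, were present in 16.6% of all promoters, in 6 of 9 mitosis genes, 4 of 8 S/G2 genes, 2 of 13 replication genes and 0 of 5 G1/S genes. CCAAT, found in 35.7% of all promoters, was present in 26 of the 40 members. The last 100 bases before the start are given for 2 genes of S/G2 and 2 of mitosis, with CHR and CCAAT letters in capitals. In MKI67 the second CHR match shares its last base with a CCAAT match on the other strand.
CCNB2 (chr15:59105046-59105145, plus strand): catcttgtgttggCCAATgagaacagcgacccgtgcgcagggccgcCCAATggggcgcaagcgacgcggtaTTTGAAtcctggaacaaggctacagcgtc
MKI67 (chr10:128126424-128126523, minus strand): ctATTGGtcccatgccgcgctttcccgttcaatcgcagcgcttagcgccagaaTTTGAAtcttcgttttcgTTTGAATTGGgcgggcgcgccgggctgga
PLK1 (chr16:23678789-23678888, plus strand): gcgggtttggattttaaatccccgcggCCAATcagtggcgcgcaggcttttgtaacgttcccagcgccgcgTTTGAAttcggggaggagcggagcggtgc
KIF11 (chr10:92593030-92593129, plus strand): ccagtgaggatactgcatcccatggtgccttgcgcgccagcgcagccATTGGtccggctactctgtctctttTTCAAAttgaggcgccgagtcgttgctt

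**Figure D1:**
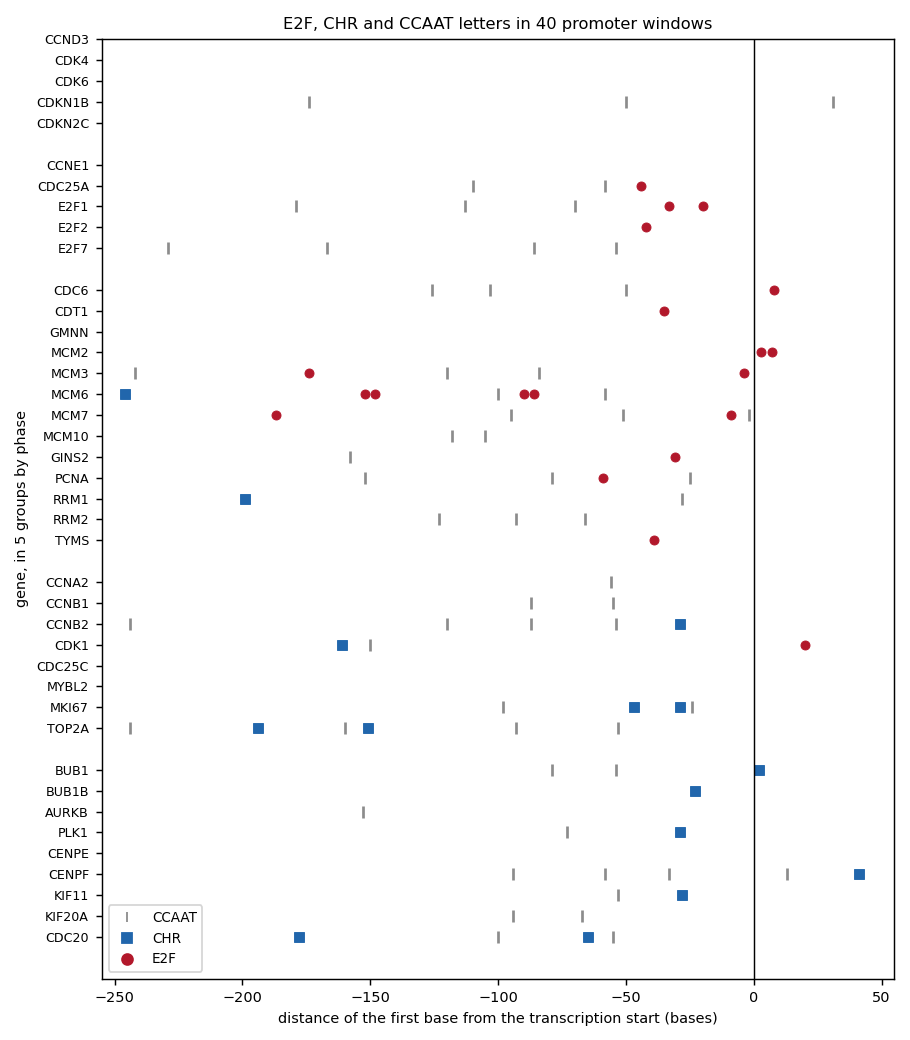
Positions of the E2F (circles), CHR (squares) and CCAAT (bars) letters in 40 promoter windows, by the distance of the first base from the transcription start in bases, with genes in 5 groups by phase. Circles are found in 13 windows and mainly in the G1/S and replication groups, and squares in 12 windows and mainly in the S/G2 and mitosis groups.

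A match says only that these letters stand in the window. Of the 11 members with E2F letters and no CHR letters, 7 rose and 0 fell under overexpression (adjusted p below 0.05, edgeR), with a median log2 fold change of 0.28, where 31.7% of all genes rose and 29.1% fell. Of the 10 with CHR letters and no E2F letters, 0 rose and 9 fell, with a median of -0.23, whereas with library totals alone 7 of these 10 were positive, 1 was called higher and 1 lower. With those totals all 11 members of the E2F class were called higher. Under that scaling 10090 of all 20835 genes tested were called higher and 3583 lower. With TMM scaling both counts of 0 were also 0 at an unadjusted p below 0.05 and by DESeq2. In the knockdown the same 11 members gave 0 rises and 2 decreases, and the same 10 gave 0 rises and 1 decrease, again with 0 rises at an unadjusted p and by DESeq2. These few decreases lie near the 10.8% of all genes that fell in the knockdown, where 13.4% rose. The 17 members with neither kind of letters gave 3 rises and 9 decreases under overexpression. Their median was -0.22, close to that of the CHR class, and with library totals alone 8 were called higher and 4 lower. In the knockdown they gave 3 rises and 4 decreases. Their median there was -0.14, against -0.14 in the E2F class and -0.05 in the CHR class.

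The first comparison asked how the cycle genes differed when ZMYND8 was in excess. Under overexpression, 25 of the 51 members fell and 13 rose, while 13 did not pass the test. The decreases were 49.0% of the members, against 29.1% of all 20835 genes tested, and the increases 25.5%, against 31.7% of all genes. The median log2 fold change was -0.16 over the members and 0.03 over all genes. Changes were mostly modest, and 3 members rose and 1 fell past a stricter rule, namely an adjusted p below 0.05, an absolute log2 change from 1 upward and a mean over 20, or 5.88% and 1.96% of them, against 11.8% and 6.84% of all genes. The phases differed in direction. In G1/S 4 of 7 rose and 2 fell, in licensing and replication 7 of 15 rose and 2 fell, in S/G2 0 of 9 rose and 6 fell, and in mitosis 0 of 13 rose and 11 fell. The 0 rises in S/G2 and mitosis were also 0 at an unadjusted p and by DESeq2.

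These directions are relative to the bulk of genes. With library totals alone, the log2 change of the median gene was 0.25 higher, and under that scaling the medians of mitosis and S/G2 became -0.01 and 0.03. Mitosis then held 3 decreases and 2 increases, and S/G2 held 1 decrease and 3 increases. Of all 20835 genes tested, 3583 were called lower and 10090 higher under that scaling. Relative to the median of all genes, the mitosis median was -0.29, that of S/G2 -0.26, that of replication 0.10 and that of G1/S 0.50, which a change of scaling leaves as they are by construction. The replication value was -0.01 by DESeq2 and also with no filter on low counts, 0.02 without overexpression replicate 1 and 0.21 without replicate 2. In bulk RNA, fewer cells in a phase and less RNA per cell cannot be told apart.

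**Figure D2:**
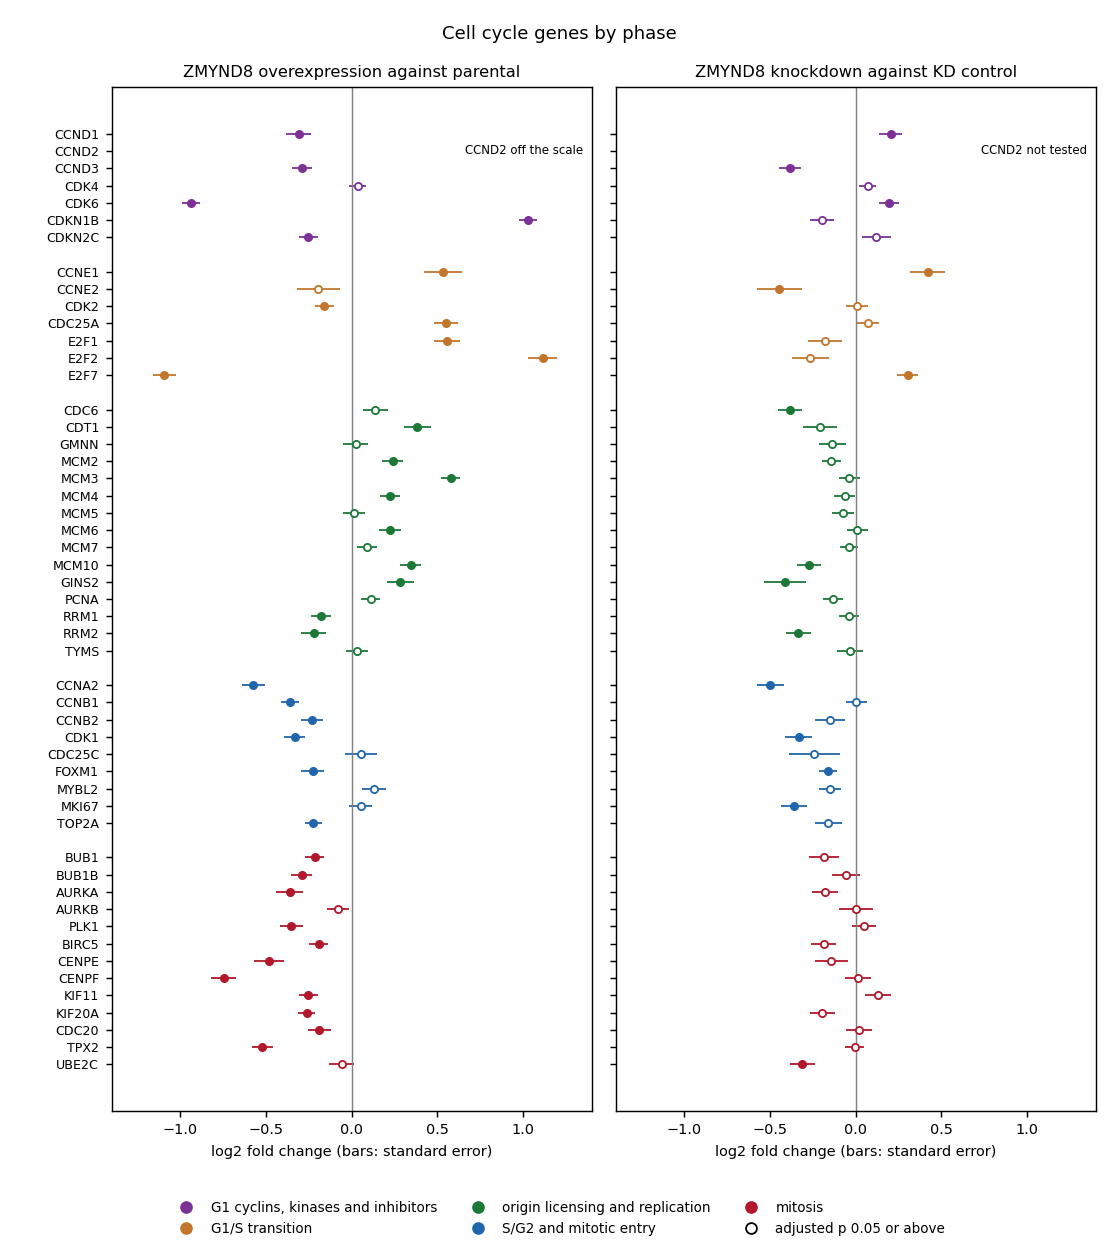
Log2 fold change of each gene under overexpression (left) and knockdown (right), with bars for the standard error, filled where adjusted p was below 0.05 and coloured by phase. Under overexpression the 13 mitosis genes lie between -0.75 and -0.06 with TMM scaling (AURKB and UBE2C, not past the test, and 4 of those that fell turn positive with library totals alone), whereas the knockdown values of all genes lie between -0.50 and 0.42.

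Replicates of the overexpressing group differed in these genes. Of the 51 members, 50 were lower in replicate 2 than in replicate 1, with a median log2 difference of -0.18, while 55.1% of all genes from 1 CPM were lower there. Without overexpression replicate 2, 18 members rose and 18 fell. Without replicate 1, 11 rose and 26 fell. Mitosis held 9 decreases without replicate 2 and 11 without replicate 1, and 0 increases in either case. S/G2 held 1 increase without replicate 2. Replication held 11 increases without replicate 2 and 5 without replicate 1, and 3 without parental replicate 1. The sample left alone in its group was assumed to vary like the others.

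Among the G1 regulators, CCND2, which encodes cyclin D2, showed the largest change. Parental cells gave 0 and 1 counts of it and overexpressing cells 490 and 357, or 8.80 and 7.73 CPM. The pooled ratio was 771 (95% exact binomial interval 138 to 30500, for counting error only). In the KD controls it had 3 and 8 counts and in the knockdown 2 and 5, too few for the test. The gene lies at chr12:4269771-4305353 (hg38, plus strand), and 12.5% of its exon length is shared with another gene on the same strand.

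CDKN1B encodes p27, an inhibitor of cyclin E and CDK2. Parental cells held it at 38.6 and 39.7 CPM and overexpressing cells at 73.4 and 76.7, which do not overlap. It rose by 1.03 ± 0.05 on the log2 scale (± SE, n = 2 against 2, edgeR adjusted p = 4.9e-08). In the KD controls it was at 50.1 and 54.2, and in the knockdown at 42.7 and 48.2, a log2 change of -0.20 ± 0.07 that did not pass (edgeR adjusted p = 0.065). With library totals alone that change was -0.25 and passed.

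CDK6, a G1 kinase, went the other way. Its parental levels of 734 and 726 CPM stood above the overexpressing ones of 374 and 342. It fell by 0.94 ± 0.05 on the log2 scale (edgeR adjusted p = 1.1e-07). It was at 741 and 793 in the KD controls and at 898 and 855 in the knockdown, where it rose by 0.19 ± 0.06 (edgeR adjusted p = 0.033), a call made under 7 of 14 settings. CDK4, its close relative, did not pass in either comparison, with 175.4 and 185.9 CPM in parental, 177.3 and 170.6 in overexpressing, 134 and 128.8 in KD control and 136.6 and 138.9 in knockdown libraries. With library totals alone its overexpression change of 0.29 passed. For CDK4, 44.2% of exon length is covered by a gene on the opposite strand and 12.7% of its 31-base stretches recur elsewhere in the genome, so its counts are less certain.

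The remaining D cyclins were both lower with ZMYND8 in excess. CCND1, for cyclin D1, was at 1242 and 1276 CPM in parental and 1038 and 869.7 in overexpressing libraries, a log2 change of -0.31 ± 0.07 (edgeR adjusted p = 0.0033) that was -0.06 and did not pass with library totals alone. In the KD experiment it was at 2245 and 2007 in the controls and rose to 2523 and 2368, by 0.20 ± 0.07 (edgeR adjusted p = 0.048), a call made under 8 of 14 settings. CCND3, for cyclin D3, was at 49.1 and 48.7 in parental and 39.5 and 35.6 in overexpressing libraries, and at 36.3 and 34.2 in KD control and 26.7 and 27.3 in knockdown libraries. It fell in both comparisons, by 0.29 ± 0.06 and 0.38 ± 0.06 (edgeR adjusted p = 0.0016 in each), but with library totals alone its overexpression change was -0.03 and did not pass.

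CDKN2C, which encodes p18, an inhibitor of CDK4 and CDK6, was at 43.7 and 44.1 CPM in parental and 35.6 and 33.5 in overexpressing libraries. It fell by 0.25 ± 0.06 with TMM, though it stood at 0.00 with library totals alone. Its levels of 15.7 and 16.7 in the KD controls and 16.7 and 18.5 in the knockdown did not differ past the test. Of the 7 G1 members, 2 rose and 4 fell under overexpression, and 2 rose and 1 fell in the knockdown. With library totals alone these counts became 3 and 1, and 0 and 2. Over all genes they were then 10090 and 3583, and 2006 and 3081.

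**Figure D3:**
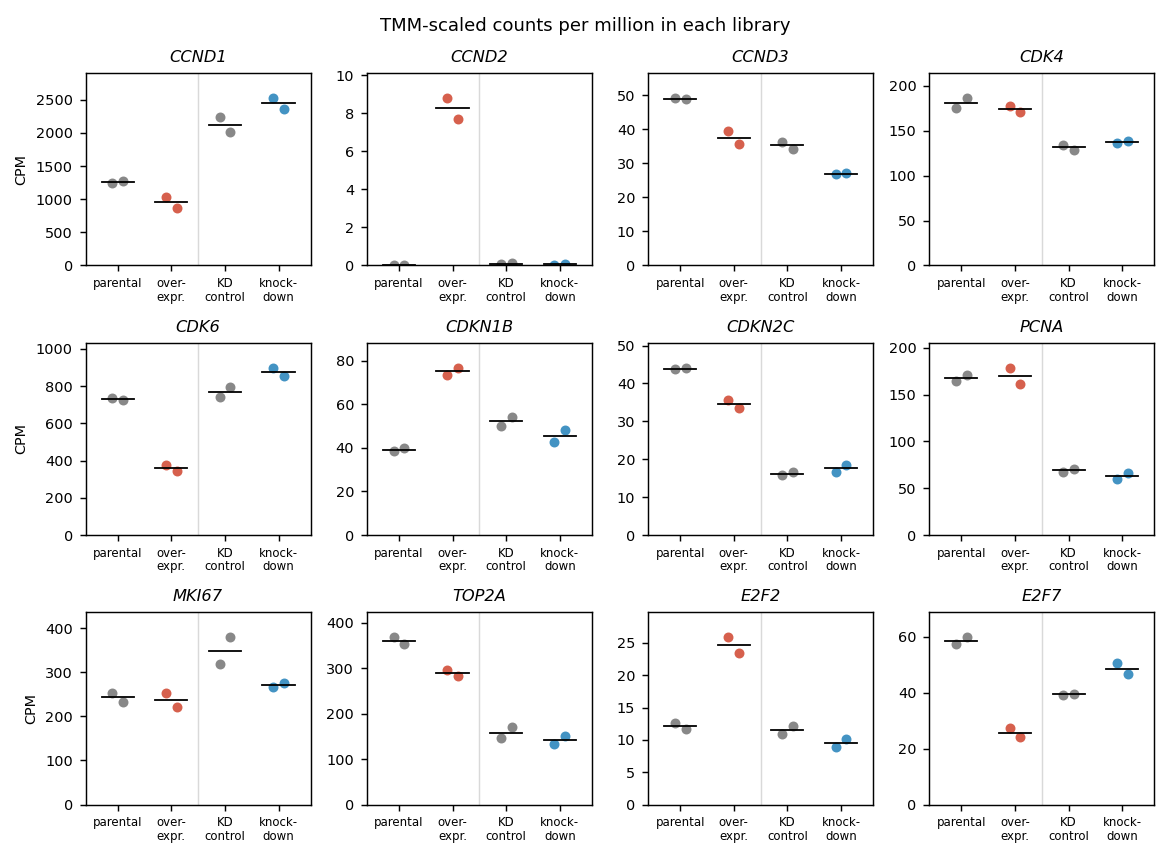
Level in each library (points, TMM-scaled CPM, axes from 0) and mean of 2 (lines) for 12 genes, with the overexpression experiment left of the grey line and the KD experiment right of it. CCND2 is near 0 in every library but the overexpressing ones at 8.80 and 7.73, and the CDK6 and E2F7 points of the overexpressing libraries lie below those of all other groups.

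At the G1/S transition, the activators E2F1 and E2F2 rose under overexpression and the atypical repressor E2F7 fell. Of the E2F genes outside the member set, E2F3 rose by 0.13 ± 0.05 on the log2 scale (edgeR adjusted p = 0.046), though 20.4% of its 31-base stretches recur elsewhere. E2F4 fell by 0.21 ± 0.06 with TMM scaling (edgeR adjusted p = 0.007). That is less than the 0.25 by which library totals alone raised the change of the median gene. E2F5, E2F6 and E2F8 did not pass, with changes of 0.18, 0.15 and 0.03. E2F2, an activator, was at 12.7 and 11.6 CPM in parental and at 25.9 and 23.4 in overexpressing libraries, a rise of 1.11 ± 0.08 on the log2 scale (edgeR adjusted p = 9.4e-07). E2F1 rose by 0.56 ± 0.07. E2F7, which represses E2F targets, was at 57.4 and 59.8 in parental and at 27.4 and 24.0 in overexpressing libraries, and fell by 1.09 ± 0.07 (edgeR adjusted p = 1.6e-07). In the KD experiment E2F7 rose from 39.2 and 39.6 to 50.6 and 46.5, by 0.30 ± 0.06 (edgeR adjusted p = 0.0052). E2F2 there went from 10.9 and 12.1 to 8.94 and 10.2 and did not pass (edgeR adjusted p = 0.099). With library totals alone its knockdown change of -0.32 passed.

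Cyclin E genes separated in the knockdown. CCNE1 was at 9.75 and 8.50 CPM in the KD controls and 12.2 and 12.2 in the knockdown, and rose by 0.42 ± 0.10 (edgeR adjusted p = 0.012). CCNE2 was at 7.80 and 9.12 in the controls and 5.67 and 6.76 in the knockdown, and fell by 0.44 ± 0.13 (edgeR adjusted p = 0.031). CCNE2 shares 37.1% of its exon length with genes on the opposite strand. Under overexpression CCNE1 rose by 0.53 ± 0.11, from 10.4 and 12.4 to 16.9 and 14.0, whereas CCNE2, at 12.9 and 11.8 against 11.4 and 8.75, did not pass. CDC25A, the phosphatase that activates CDK2, rose by 0.55 ± 0.07 under overexpression. Its knockdown change of 0.07 ± 0.06 did not pass, and the difference between both effects was 0.47 ± 0.09 (edgeR adjusted p = 0.00065). CDK2 itself fell by 0.16 ± 0.06 with TMM, and its change was 0.09 with library totals alone.

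Origin licensing loads the MCM2 to MCM7 helicase on DNA through CDC6 and CDT1. MCM3 showed the largest rise of this group, from 134 and 143 CPM in parental to 200.4 and 188 in overexpressing libraries, by 0.58 ± 0.05 on the log2 scale (edgeR adjusted p = 4.7e-06). In the KD experiment it was at 83.1 and 87.7 against 78.8 and 87.4. CDT1 rose from 29.2 and 28.5 to 38.2 and 32.4, by 0.38 ± 0.08 (edgeR adjusted p = 0.0014), and in the KD experiment was at 12.4 and 11.03 against 10.02 and 10.2. MCM10, MCM2, MCM4, MCM6 and GINS2 rose by between 0.22 and 0.34, while MCM5 and MCM7 did not pass. With library totals alone the MCM5 and MCM7 changes of 0.27 and 0.34 passed.

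In the knockdown 4 replication genes fell and 0 rose, with 0 rises also at an unadjusted p and by DESeq2. The median of the group was -0.13, against -0.01 over all genes. GINS2, a subunit of the helicase at the moving fork, was at 10.9 and 11.96 CPM in the KD controls and 7.55 and 9.57 in the knockdown, and fell by 0.41 ± 0.12 (edgeR adjusted p = 0.033). With ZMYND8 in excess it went from 17.1 and 18.6 to 21.6 and 19.2, a rise of 0.28 ± 0.08 (edgeR adjusted p = 0.011) that DESeq2 did not call (adjusted p = 0.058). CDC6 was at 34.1 and 34.7 in the controls and 25.2 and 27.5 in the knockdown, and fell by 0.38 ± 0.07 (edgeR adjusted p = 0.0022). Its levels of 42.0 and 40.2 in parental and 45.8 and 38.9 in overexpressing libraries overlapped.

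PCNA, the sliding clamp of the replicative polymerases, did not pass in either comparison with TMM scaling. With library totals alone its changes of 0.36 under overexpression and -0.19 in the knockdown passed. It was at 165 and 171 CPM in parental, 179 and 162 in overexpressing, 67.7 and 71.0 in KD control and 60.1 and 66.3 in knockdown libraries. RRM1 and RRM2, the subunits of ribonucleotide reductase, were the members of this group that fell under overexpression, by 0.18 and 0.22, although both were slightly positive, at 0.08 and 0.03, with library totals alone. RRM2 also fell in the knockdown, by 0.33 ± 0.07 (edgeR adjusted p = 0.0067). GINS2, PCNA and RRM2 share 14.1%, 12.4% and 13.3% of their 31-base stretches with other places in the genome, and 23.6% of MCM2 and 47.5% of TYMS exon length lies under genes of the opposite strand.

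Genes of S/G2 and mitotic entry fell or did not pass. CCNA2, for cyclin A2, was at 95.1 and 91.7 CPM in parental and 63.6 and 54.1 in overexpressing libraries, and fell by 0.57 ± 0.07 on the log2 scale (edgeR adjusted p = 3.8e-05). In the KD experiment it went from 30.3 and 33.6 to 21.6 and 23.6 and fell by 0.50 ± 0.08 (edgeR adjusted p = 0.001). CCNB1, for cyclin B1, was at 142 and 144 in parental and 109 and 99.8 in overexpressing libraries, a log2 change of -0.36 ± 0.05 (edgeR adjusted p = 0.00017), but at 45.0 and 46.7 in the KD controls against 44.1 and 47.7 in the knockdown, which overlap. CDK1 fell by 0.33 in each comparison. With library totals alone the overexpression changes of CCNB1 and CDK1 were -0.10 and -0.08 and did not pass.

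MKI67 encodes the proliferation antigen Ki-67. It was at 253 and 233 CPM in parental and 253 and 220.3 in overexpressing libraries, which overlap, although with library totals alone its change of 0.31 passed. In the KD experiment it was at 318 and 379 in the controls and 267 and 276 in the knockdown, and fell by 0.36 ± 0.08 (edgeR adjusted p = 0.006). TOP2A, the topoisomerase that untangles chromosomes, was at 368 and 353 in parental and 296 and 283 in overexpressing libraries. It fell by 0.22 ± 0.05 (edgeR adjusted p = 0.0028), yet stood at 0.03 with library totals alone. Its KD control levels of 146 and 171 overlapped the knockdown levels of 132 and 151.

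Among mitosis genes, CENPF, a kinetochore protein, changed most under overexpression. It was at 380.1 and 340.4 CPM in parental and 216 and 188 in overexpressing libraries, and fell by 0.75 ± 0.07 on the log2 scale (edgeR adjusted p = 7.1e-06). TPX2, which activates Aurora A on the spindle, went from 207 and 202 to 142 and 125, and fell by 0.52 ± 0.06 (edgeR adjusted p = 2.9e-05). In the KD experiment CENPF was at 183 and 219 against 198 and 207, and TPX2 at 93.3 and 101 against 95.8 and 97.4, with overlapping groups. The other mitosis genes that fell under overexpression did so by between 0.19 and 0.48, with CDC20, BIRC5, BUB1 and KIF11 at or above 0.00 with library totals alone.

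UBE2C, the ubiquitin-conjugating enzyme of the anaphase-promoting complex, was the 1 mitosis gene called in the knockdown. It was at 25.99 and 25.9 CPM in the controls and 19.97 and 21.8 in the knockdown, and fell by 0.31 ± 0.07 (edgeR adjusted p = 0.01). In parental and overexpressing libraries it was at 40.8 and 36.4 and at 36.2 and 33.2, and did not pass, although with library totals alone its change of 0.195 did. AURKA and CDC20 share 19.9% and 20.9% of their 31-base stretches with other places, and PLK1, FOXM1 and BUB1B share over 10% of their exon length with other genes, so their counts may hold reads of other genes.

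The second comparison asked the same of cells with less ZMYND8, and gave fewer and smaller changes. Of 50 members tested, 11 fell and 4 rose, or 22.0% and 8.0%, against 10.8% and 13.4% of the 19789 genes tested. The median log2 change was -0.14 over the members and -0.01 over all genes. No member passed the stricter rule (0 by edgeR), at which 1.36% of all genes rose and 0.596% fell. The count of members called with a log2 change of at least 0.5 was 0 by edgeR, also at an unadjusted p, and 0 by DESeq2. The count depended on the setting. With no filter on low counts 5 members were called, namely CCNA2, CCND3, CDC6, E2F7 and UBE2C. Over all genes 1773 then rose and 1197 fell, against 2653 and 2146 with the filter. The count was also smaller without KD control replicate 2, where fewer of all genes were called as well. CCNA2, CCND3, CDC6 and E2F7 were called under all 14 settings tried. In the knockdown group 48 of 51 members were higher in replicate 2 than in replicate 1, with a median log2 difference of 0.11, while 43.6% of all genes were lower there.

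The difference between both effects was then tested directly over all 8 libraries. For 24 of 51 members the effects differed, with overexpression the more positive in 15 and the more negative in 9, or 29.4% and 17.6%, against 24.6% and 24.4% of 22619 genes. In replication the difference was positive in 8 of 15 and negative in 0, with 0 negative also at an unadjusted p and by DESeq2, and 1 negative with no filter on low counts. In mitosis it was negative in 4 of 13 and positive in 0, with 1 positive at an unadjusted p and 0 by DESeq2. With library totals alone, however, it was positive in 4 and negative in 1, where 9120 of 22619 genes were called positive and 3238 negative. Its median in mitosis then turned from -0.21 to 0.10. It was negative in 8 mitosis genes without overexpression replicate 1 and also with no filter, in 6 without KD control replicate 2 and in 6 without knockdown replicate 1. Of 11 members called in both comparisons, 5 had opposite directions, each with a difference past the test: CCND1, CDK6 and E2F7 were lower with excess ZMYND8 and higher with less, and MCM10 and GINS2 the reverse. The other 6, CCND3, CCNE1, RRM2, CCNA2, CDK1 and FOXM1, moved the same way in both with TMM scaling, and their differences did not pass. With library totals alone RRM2 and FOXM1 stood at 0.03 under overexpression, and of these 6 differences all but that of CCNA2 passed, with CDK1 at 0.31 and FOXM1 at 0.24. The knockdown call of FOXM1 was made under 6 of 14 settings and not by DESeq2. CDKN1B gave a difference of 1.22 ± 0.09 (edgeR adjusted p = 3.8e-08).

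**Figure D4:**
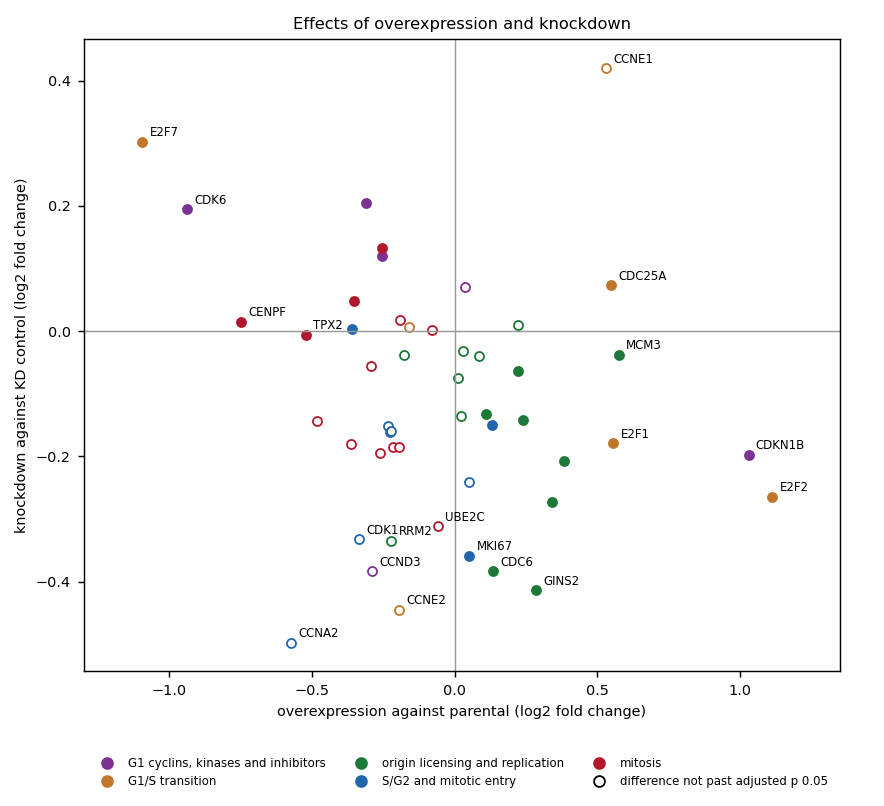
Log2 fold change under overexpression (x) against that in the knockdown (y) for 50 genes coloured by phase, filled where the difference between both effects had adjusted p below 0.05. CCND2 was not tested in the knockdown and is not drawn. CDK6 and E2F7 lie at upper left, CDKN1B and E2F2 at lower right, and CCNA2 at lower left.

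Levels also differed between the experiments before any change in ZMYND8. Of the 51 members, 44 were higher in both parental libraries than in both KD controls and 6 were lower, with a median ratio of 1.88. How many of all genes separated in this way was not counted, nor was their median ratio taken. The median ratio was 0.95 for G1 regulators, 1.43 for G1/S, 1.88 for replication, 2.27 for S/G2 and 2.39 for mitosis. KIF20A, a mitotic kinesin, and PLK1, a mitotic kinase, were 5.35 and 4.24 times as high in parental cells, whereas CCND1 and MKI67 stood at 0.59 and 0.70 of their KD control level. Doxycycline, the handling of the control cells and the time of the experiment cannot be told apart here, so no test is given. Per kilobase of exon, CCND1 had the highest level of all members in every group, at 264.5, 200.4, 446.6 and 513.6 CPM per kb in parental, overexpressing, KD control and knockdown cells. PCNA came second in parental and overexpressing cells, at 120 and 121 CPM per kb, and CDK6 in the KD experiment, at 62.6 and 71.6.

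**Figure D5:**
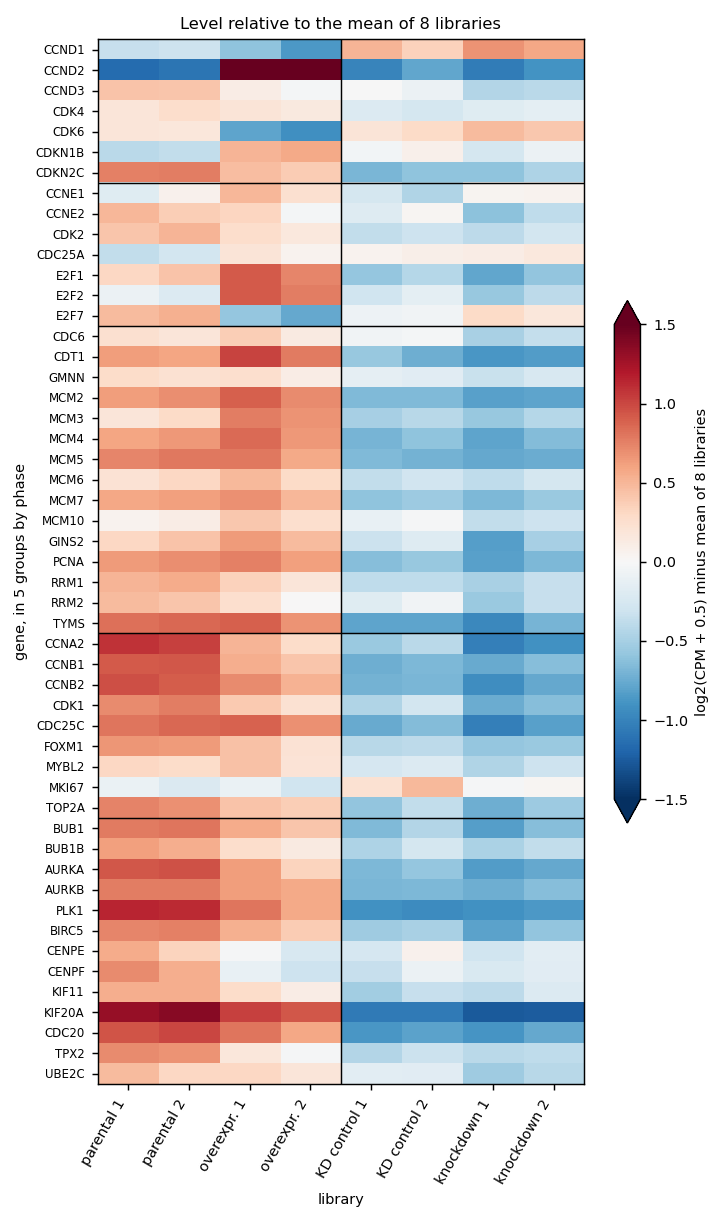
Level of the 51 genes in each of 8 libraries as log2(CPM + 0.5) minus the mean of that gene over all 8, with genes in 5 groups by phase. Colours end at 1.5 in either direction, which CCND2 exceeds in the overexpressing libraries. Most replication and mitosis genes are higher in the 4 libraries of the overexpression experiment, and overexpressing replicate 2 is paler than replicate 1 in most of them.

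The lists of other genes of the pathway were described by the same counts, to be read against the 31.7% of all genes that rose and 29.1% that fell under overexpression, and the 13.4% and 10.8% in the knockdown. They are given with TMM scaling only. With library totals alone the log2 change of the median gene under overexpression was 0.25 higher, so small decreases in these lists depend on the scaling. Of 48 other mitosis genes tested 31 fell (64.6%) and 3 rose (6.25%) under overexpression, with a median of -0.28, led by KIF14 at -1.01 and ASPM at -0.90. In the knockdown 8 fell (16.7%) and 2 rose (4.17%), led by KNL1 at -0.415 and CENPA at -0.39. Of 41 other replication genes 14 rose (34.1%, near the share of all genes) and 6 fell (14.6%) under overexpression, with the kinase CDC7 at 0.70 and the polymerase subunit POLD1 at 0.40, and in the knockdown 12 fell (29.3%) and 1 rose (2.44%), with the clamp loader subunit RFC3 at -0.58.

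Among 6 other CDK inhibitors, 4 fell (66.7%) and 1 rose (16.7%) under overexpression. CDKN2B, for p15, was at a mean of 43.7 CPM in parental and 3.56 in overexpressing cells, a log2 change of -3.51 ± 0.12 (edgeR adjusted p = 2.1e-09), and CDKN1A, for p21, at 788 and 336, a change of -1.14 ± 0.05 (edgeR adjusted p = 1.5e-08). Both also fell in the knockdown, by 0.50 and 0.23. Of 15 partners of the RB, E2F and DREAM complexes, 7 fell (46.7%) and 3 rose (20%) under overexpression, led by LIN9 at -0.53 and TFDP1 at -0.40, although 25.8% of the 31-base stretches of TFDP1 recur elsewhere. In the knockdown 3 rose (20%) and 1 fell (6.67%), with E2F5 at 0.64 and E2F4 at 0.26, and 18.8% of E2F5 exon length lies under genes of the opposite strand.

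Markers of the cell states of the line moved with these genes. Of 11 adrenergic markers 10 could be tested and all 10 rose under overexpression, their summed level going from between 341 and 342 CPM to between 1119 and 1160. The marker that could not be tested there, TH, had at most 5 counts in any library. Of 12 mesenchymal markers 11 fell and TWIST1 rose, with the sum going from between 9856 and 10530 to between 3307 and 3562. In the knockdown 5 of 9 adrenergic markers fell, and 6 mesenchymal markers rose and 2 fell, with sums of 879 and 926 against 674 and 757, and of 5154 and 5002 against 6677 and 6275. Their part in the cycle results was not tested.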

How the data were processed

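RNA-seq of 8 libraries was analysed. The authors trimmed paired-end reads with Trim_Galore, aligned them to GRCh38 with Hisat2 and deposited raw counts per gene from featureCounts on GENCODE release 28. Tool versions and the strand setting are not given in the sources used here, so antisense reads cannot be told apart. Symbols came from GENCODE release 44, which held 60462 of 60659 identifiers, and 3 lines holding 1 gene whose record is broken were left out.

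Groups followed the labels. Members and lists were chosen with earlier results of these data known. Genes passing filterByExpr were tested with edgeR 4.0.16 (R 4.3.3) by the quasi-likelihood test after TMM scaling, 2 against 2 libraries, or over all 8 for the difference of effects, with Benjamini-Hochberg adjustment over all genes tested and a threshold of 0.05. The study used DESeq2 with cutoffs on the p-value (0.05), the base mean (20) and a fold change given as 1. The stricter rule here reads that fold change as 1 on the log2 scale and takes the adjusted p. Alternatives were DESeq2 1.42.0, other scalings, no filter, a replicate block, gene length and GC trends, and leaving out each library. Printed CPM were scaled over 8 libraries, which moved overexpression 0.09 (log2) below the fitted scale. All members were named by rule, with every library shown for 10 fixed genes and for the 2 with the largest called change, at a mean above 100, per phase and comparison. An example gene that this rule names is not reported here. The scripts were tested on simulated data, in which far fewer genes changed than were called under overexpression. That test therefore did not address the choice of scaling. Its pass mark for DESeq2 was lowered after the result was seen. Replicates differed by more than counting noise, and intervals cover counting error only. Motifs were exact matches in RefSeq windows, and 31-base stretches of exons were searched in hg38.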

Additional observations from a re-analysis of the deposited data

Results flagged for a closer look

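For 5 members the effects of overexpression and of knockdown went in opposite directions, both called, and the difference between both effects passed edgeR's test over all 8 libraries (edgeR adjusted p at most 0.0017). The difference, overexpression minus knockdown on the log2 scale, was -0.52 for CCND1, -1.14 for CDK6, -1.403 for E2F7, 0.61 for MCM10 and 0.69 for GINS2. The CCND1 difference was -0.20 and did not pass with library totals alone (edgeR adjusted p = 0.11). The knockdown calls were made under 7 of 14 settings for CDK6, 8 for CCND1, 11 for GINS2, 12 for MCM10 and 14 for E2F7. DESeq2 did not call the rise of GINS2 under overexpression.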

How the results depend on the processing

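Overexpression called 38 members, 12 with a log2 change of at least 0.5 (7 higher, 5 lower) and 4 with at least 1 and a mean above 20 (3 higher, 1 lower). Library totals alone gave 25 higher and 6 lower, with 73.8% of all calls higher against 52.2% with TMM. The cause was not tested. Under it the overexpression changes turned positive for CDKN2C (0.00087), CDK2 (0.095), RRM1 (0.076), RRM2 (0.032), CCNB2 (0.023), FOXM1 (0.027), TOP2A (0.031), BUB1 (0.038), AURKB (0.18), BIRC5 (0.061), KIF11 (0.000939), CDC20 (0.065) and UBE2C (0.195), and the differences of effects for CDK4 (0.28), CDK1 (0.31), FOXM1 (0.24), BUB1 (0.28), BIRC5 (0.304) and KIF20A (0.24). Leaving out 1 library gave 32 to 37 members, 9 to 18 higher and 18 to 26 lower. There and below, a lone sample was assumed to vary like the other groups.

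The knockdown called 15 members, 4 higher and 11 lower. Library totals alone gave 2 higher and 19 lower, with 39.4% of all calls higher against 55.3% with TMM, and no filter on low counts gave 5, 1 higher and 4 lower. With a log2 change of at least 0.5, or of at least 1 and a mean above 20, the counts were 0, with 0 higher and 0 lower (edgeR, also 0 at an unadjusted p and by DESeq2). Leaving out 1 library gave 5 to 20, 1 to 4 higher and 4 to 16 lower. The replicate block gave 25, with 20 lower, and with a gene length trend 23, with 19 lower. Across all genes tested, replicate deviations correlated at 0.01 (overexpression) and -0.01 (knockdown), so replicate numbers showed no pairing there. Of the 51 members, 41 were higher in replicate 2 of the KD controls and 48 in replicate 2 of the knockdown. In parental cells 30 were higher in replicate 2, and in overexpressing cells 1. Pairing among the members was not tested.

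The difference of effects was called in 24 members, 15 higher and 9 lower. Library totals alone gave 32 higher and 3 lower, with 73.8% of all calls higher against 50.3% with TMM, and no filter gave 15 lower. Leaving out 1 library gave 22 to 25, 12 to 16 higher and 9 to 13 lower. In 45 members the parental mean was above that of the KD control, within 1.5 times of that count under both other scalings. This count was not taken over all genes.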

Other observations

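Of 17 ubiquitin ligase genes of the cycle, which mark cyclins and other regulators for destruction, 8 fell (47.1%, against 29.1% of all genes) and 2 rose (11.8%, against 31.7%) under overexpression, with a median log2 change of -0.10, led by ANAPC10 at -0.54 and CDC27 at -0.48. These values are with TMM scaling only. With library totals alone the log2 change of the median gene was 0.25 higher, a shift larger than that median. In the knockdown 2 fell (11.8%, near the 10.8% of all genes) and 1 rose (5.88%, against 13.4%), and CDC27 and CDC23 fell by 0.73 and 0.26. CDC27, a subunit of the anaphase-promoting complex, was at a mean of 254 CPM in parental and 172 in overexpressing cells, and at 256.2 in KD control and 154 in knockdown cells. Of its 31-base stretches 15.1% recur elsewhere in the genome, and 24.6% of ANAPC10 exon length is shared with genes on the same strand, so both counts are uncertain.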
